A study of Mus musculus with 2 samples.

Results

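A set of 10 genes of the cardiac sarcomere and its attachments, Myh6, Myh7, Myl7, Myl4, Actc1, Tnnt2, Tnni1, Ttn, Nexn and Ankrd1, was examined in single-cell RNA-sequencing libraries of E9.5 mouse embryos. They were 10 of the 18131 genes measured, and all 10 were found in both libraries. They were chosen by their measured levels, since genes that work in 1 sarcomere differed in opposite directions between the libraries, so the ratios of KO over WT below describe the choice and carry no test. The dissected region of the C57BL/6 embryos ran from the otic placode, cut at its middle, back to the end of the 4th somite. Each genotype gave 1 library, with Prdm6+/+; Wnt1-Cre2; ZsGreen1 as WT and Prdm6f/f; Wnt1-Cre2; ZsGreen1 as KO. Both carried the Wnt1-Cre2 transgene, which makes Cre recombinase in the Wnt1 lineage that includes the neural crest, and the Cre-dependent green reporter ZsGreen1. The floxed Prdm6 allele, present only in the KO embryos, is therefore cut in that lineage and not in other lineages, and no sorting step is described. Although the labels call the cells cardiac neural crest, markers of migrating neural crest gated 194 WT cells (1.62%) and 149 KO cells (1.53%). This does not estimate the neural crest share, since 72.96% of WT and 74.97% of KO cells met no gate. Which cell came from which embryo was not analysed here, so each genotype counts as 1 sample and no difference between genotypes could be tested.

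The sarcomere is the contractile unit of striated muscle, in which myosin thick filaments pull on actin thin filaments that are anchored in the Z disc. Each thick filament carries heavy chains (Myh6, alpha; Myh7, beta) with essential (Myl4) and regulatory (Myl7) light chains, and each thin filament carries actin (Actc1) with the troponins that make its movement depend on calcium (Tnnt2, tropomyosin-binding; Tnni1, inhibitory, the slow skeletal form used by the embryonic heart). Ttn encodes titin, the giant spring that links the Z disc to the M line, Nexn encodes the actin-binding Z disc protein nexilin, and Ankrd1 encodes a stretch-responsive ankyrin repeat protein that binds titin and is also found in the nucleus. In the young heart tube the regional forms are not yet fully separated, and Myh6 is known as the heavy chain of the future atria and Myh7 as that of the future ventricles and outflow tract.

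In GRCm38, Myh6 (chromosome 14, 54941921 to 54966927) and Myh7 (chromosome 14, 54970684 to 54994626) lie head to tail on the minus strand, and the lowest coordinate of Myh7 is 3757 above the highest of Myh6. Tnni1 (chromosome 1, 135779434 to 135810989) and Tnnt2 (chromosome 1, 135836354 to 135852260) are likewise neighbours, on the plus strand. The other genes lie apart: Myl7 on chromosome 11 (5896637 to 5898782, minus), Myl4 on chromosome 11 (104550663 to 104595753, plus), Actc1 on chromosome 2 (114047282 to 114053548, minus), Ttn on chromosome 2 (76703980 to 76982547, minus), Nexn on chromosome 3 (152236982 to 152266350, minus) and Ankrd1 on chromosome 19 (36111961 to 36120099, minus). Whether the counting used strand is not given in the sources used here, and antisense genes overlap some of these. Their own counts were low: Mhrt, antisense to Myh7, had 76 UMIs in all WT cells and 77 in all KO cells. Myh6 with Myh7, and Actc1 with Acta1 and Acta2, are closely related in sequence, and how reads that fit more than 1 of them were counted is not stated.

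Promoter windows from RefSeq (GRCm38.p6, 250 bases before to 50 after the start of the transcript) were found for 9 of the 10 genes, and Nexn had none. Those of the genes on which the results below turn, a light chain and the actin with opposite ratios, the stretch-responsive gene and the heavy chain pair, are printed 5′ to 3′ on the strand of the gene. Capitals mark a match on either strand to a CArG box (the site of serum response factor), to AGATAA, which GATA factors bind, or to CATTCC, which TEAD factors bind. The windows are chr11:5898733-5899032 for Myl7, chr2:114052826-114053125 for Actc1, chr19:36119795-36120094 for Ankrd1, chr14:54966558-54966857 for Myh6 and chr14:54994577-54994876 for Myh7, all on the minus strand.
Myl7: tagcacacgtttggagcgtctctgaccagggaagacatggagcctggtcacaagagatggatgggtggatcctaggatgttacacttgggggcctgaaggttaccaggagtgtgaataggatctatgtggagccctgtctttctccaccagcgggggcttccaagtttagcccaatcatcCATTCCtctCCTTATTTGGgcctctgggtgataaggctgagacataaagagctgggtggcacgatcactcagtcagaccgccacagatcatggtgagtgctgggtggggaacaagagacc
Actc1: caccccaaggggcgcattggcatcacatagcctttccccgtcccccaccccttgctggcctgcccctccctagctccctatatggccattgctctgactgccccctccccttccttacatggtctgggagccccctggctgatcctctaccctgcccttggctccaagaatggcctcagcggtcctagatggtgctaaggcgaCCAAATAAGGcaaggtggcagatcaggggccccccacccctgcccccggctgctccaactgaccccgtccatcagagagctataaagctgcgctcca
Ankrd1: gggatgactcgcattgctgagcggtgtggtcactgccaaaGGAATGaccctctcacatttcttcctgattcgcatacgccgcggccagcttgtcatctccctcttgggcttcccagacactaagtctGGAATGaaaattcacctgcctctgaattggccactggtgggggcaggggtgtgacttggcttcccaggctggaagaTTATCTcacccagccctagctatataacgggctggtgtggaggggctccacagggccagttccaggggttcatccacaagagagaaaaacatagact
Myh6: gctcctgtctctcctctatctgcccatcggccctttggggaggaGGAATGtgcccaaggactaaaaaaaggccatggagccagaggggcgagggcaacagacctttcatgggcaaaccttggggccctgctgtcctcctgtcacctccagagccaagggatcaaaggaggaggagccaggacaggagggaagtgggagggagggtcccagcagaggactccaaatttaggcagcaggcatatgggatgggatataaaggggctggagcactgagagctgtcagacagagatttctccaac
Myh7: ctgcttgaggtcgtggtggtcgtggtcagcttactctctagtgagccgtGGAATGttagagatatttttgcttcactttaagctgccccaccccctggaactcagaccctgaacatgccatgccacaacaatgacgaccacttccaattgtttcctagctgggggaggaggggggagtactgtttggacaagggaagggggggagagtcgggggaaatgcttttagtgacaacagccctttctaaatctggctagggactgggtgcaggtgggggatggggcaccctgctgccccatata
A CArG box was found in 2 of the 9 windows, those of Myl7 and Actc1, and in 1.63% of the 32851 windows of all genes. CATTCC was found in 6 of the 9 against 14.7% of all windows, and it lies in the printed windows of Myl7, Ankrd1 (2 matches), Myh6 and Myh7. AGATAA was found in 2 of the 9, Ankrd1 and Tnnt2, against 11.2%, and a MEF2 site in 1, Ttn, against 3.19%. AAGTG, a site of NKX2-5, was found in 4 of the 9 windows and in 46.4% of all windows, and is not capitalised. A match is a run of letters and not a shown site. Of the 2 genes with a CArG box, Myl7 was higher and Actc1 lower in KO in the main ratios below. Myl7 did not keep that side under every way of counting. Any link between a motif and these ratios was not tested.

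There were 11958 WT cells, with 20781384 UMIs in all and a median of 1597 per cell, and 9765 KO cells, with 18936857 UMIs and a median of 1703. A UMI is a molecular barcode, so UMIs count captured RNA molecules from the 3′ end, and levels of different genes can be compared without regard to their length. Cells were gated as cardiac muscle from 12 marker genes that are not among the 10, such as Actn2, Tnnc1, Nkx2-5 and Ryr2, and of which some are sarcomere genes themselves. A cell had to show at least 3 of them and more than of any other of the 13 marker lists. This gave 809 WT cells (6.77% of cells, 95% interval 6.32% to 7.23%) and 539 KO cells (5.52%, 5.08% to 5.99%). Intervals here and below are exact and cover counting error only, not the spread between cells, embryos or libraries. The gated cells had a median of 2243 UMIs in WT and 2639 in KO. The gated cells differed in how many of the 10 genes they showed, and what the cells with few of them are was not tested: 138 WT and 153 KO gated cells showed fewer than 5 of the 10 genes, which took 0.201% and 0.197% of their UMIs against 3.49% and 3.44% in the rest of the gate. At least 5 of the genes were seen in 82.9% of WT and 71.6% of KO gated cells (81.2% and 65.6% at 1000 UMIs per cell), and in 0.611% and 1.52% of erythroid cells, whose median depths were 2073 and 2496 UMIs. With a gate of 2 markers that are no sarcomere genes the order turned, to 85.9% in WT and 88.7% in KO. Conversely, 497 WT and 471 KO cells outside the gate showed at least 5. Of the 26 cell barcodes found in both libraries, 2 were in the cardiac gate of each. Prdm6, the targeted gene, had 28 UMIs in WT (15.1 CPM, UMIs per 1000000 UMIs of the cells) and 19 in KO (13.4 CPM) in cardiac-gated cells, and 104 (5.00 CPM, 4.09 to 6.06) and 59 (3.12 CPM, 2.37 to 4.02) in all cells, where the intervals did not overlap and the level was lower in KO. In the migrating neural crest gate, of the lineage in which the allele is cut, it had 1 UMI in WT (2.06 CPM, 0.0521 to 11.5) and 2 in KO (4.48 CPM, 0.543 to 16.2), a difference that was not detectable at this depth. Reads from the 3′ end do not tell a cut allele from an intact one.

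All 10 genes were highest in cardiac-gated cells in both libraries. Their UMIs made up 3.09% of all UMIs of the gated cells in WT and 2.81% in KO. In erythroid-gated cells, which should lack them, they made up 0.0949% in WT (491 cells) and 0.0890% in KO (198 cells), which is taken as the background here. What gave these UMIs was not tested. The cardiac level exceeded the erythroid level by between 21.2-fold (Actc1) and 57.5-fold (Ankrd1) in WT, and by between 16.7-fold (Actc1) and 93.9-fold (Nexn) in KO for the genes with more than 4 erythroid UMIs. Ankrd1 had 4 erythroid UMIs in KO, and its erythroid level of 7.87 CPM had an interval of 2.15 to 20.2. The cardiac gate held 82.3% of all Ankrd1 UMIs in WT and 84.1% in KO, the highest share of the 10 genes, and 55.8% and 47.0% of all Actc1 UMIs.

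**Figure D1:**
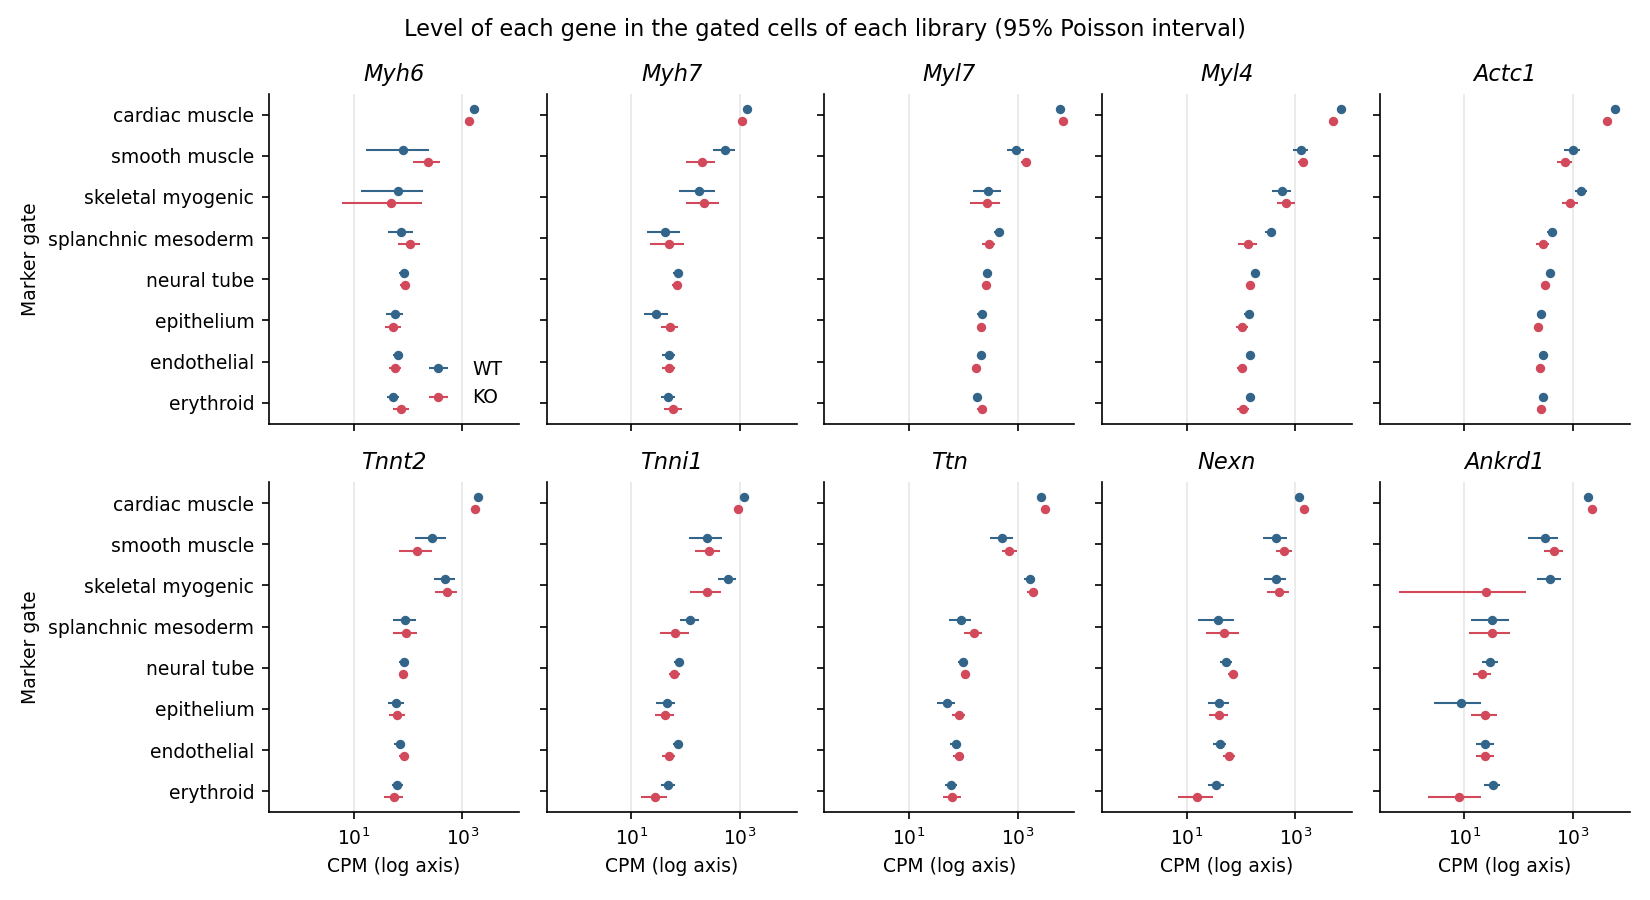
Level of each gene in CPM (horizontal log axis) in 8 marker gates (vertical axis) of the WT library (blue) and the KO library (red), with 95% Poisson intervals as bars. Each gene is highest in the cardiac gate, between 937 and 6903 CPM, and in the endothelial, epithelial and neural tube gates no gene exceeds 381 CPM.

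The abundant genes were also seen in many cells that should lack them. Actc1 was found in 90.6% of cardiac-gated WT cells and in 45.4% of erythroid-gated WT cells, at median depths of 2243 and 2073 UMIs. Thinned to 1000 UMIs per cell, these shares were 86.4% and 24.3%. Ankrd1 was found in 61.8% of cardiac-gated and 6.92% of erythroid-gated WT cells (47.8% and 3.30% thinned). In KO the shares were 84.0% and 49.5% for Actc1 and 56.0% and 2.02% for Ankrd1. Thinning left out 1361 WT and 125 KO cells with fewer UMIs.

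After the cardiac gate, the next highest level was in the small skeletal myogenic gate (20 WT and 15 KO cells) or smooth muscle gate (19 and 25 cells). This held for each gene in both libraries, except Myh6 in WT, among the gates with at least 15 cells in each library. A marker gate does not place a cell outside the heart. Acta2, a marker of the smooth muscle gate, had 2518 CPM in the WT cardiac gate and 1969 CPM in the KO cardiac gate. Cells with a cardiac marker were left out only for the skeletal myogenic gate. Ttn stood at 1667 CPM (1314 to 2087) in WT and 1897 (1497 to 2371) in KO in the skeletal myogenic gate, 27.6-fold and 30.1-fold the erythroid level. Actc1 stood there at 1426 CPM (1101 to 1818) and 887 CPM (621 to 1228), and Tnni1, the slow skeletal troponin, at 592 CPM (390 to 862) and 246 CPM (118 to 453). Myh6 was at the erythroid level there, with 3 UMIs in WT and 2 in KO. In WT 8 and in KO 7 of the 10 genes had a level whose interval lay above that of erythroid cells. The share of all genes above it was not computed, so these counts are not read as a result about the 10. When cells with any UMI of a cardiac marker were left out, 1 and 2 of the 10 still lay above it. Fewer cells give wider intervals, so this drop does not show that the levels fell. Several cardiac markers are also used by skeletal muscle. In the smooth muscle gate Myl7 stood at 938 CPM (650 to 1311) in WT and 1422 CPM (1138 to 1757) in KO, and Myl4 at 1269 CPM (929 to 1693) and 1406 CPM (1123 to 1738). In splanchnic mesoderm-gated cells (94 and 72 cells) Myl4 stood at 352 CPM (277 to 441) in WT and 135 CPM (87.7 to 199.9) in KO, against 144 CPM and 110 CPM in erythroid cells.

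Within the cardiac gate the light chains and the actin were the most abundant. In WT, Myl4 (6903 CPM) was followed by Myl7 and Actc1, whose intervals overlapped, then by Ttn, by Tnnt2 and Ankrd1, whose intervals overlapped, by Myh6, by Myh7 and last by Tnni1 and Nexn, whose intervals overlapped. In KO the order began with Myl7 (6778 CPM), followed by Myl4, Actc1, Ttn, Ankrd1, Tnnt2, Nexn, Myh6, Myh7 and Tnni1, and the intervals of neighbours did not overlap. The first place thus differed between the libraries, and Nexn stood above both heavy chains in KO and below both in WT.

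Among the thick filament genes, the regulatory light chain went one way and the others the other way. Myl7 had 6062 CPM (5950.1 to 6175) in WT and 6778 CPM (6643 to 6915) in KO, a log2 ratio of KO over WT of 0.16 (0.12 to 0.20). This ratio turned to −0.01 with 2 markers in the gate and to −0.05 with counts thinned to 1000 UMIs. Myl4, the essential light chain of the same heads, had 6903 CPM (6783 to 7023) and 4971 CPM (4855 to 5088), a log2 ratio of −0.47 (−0.52 to −0.43). Both heavy chains were lower in KO by nearly the same amount. Myh6 had 1670.4 CPM (1612 to 1730.3) and 1346 CPM (1286 to 1408), a log2 ratio of −0.31 (−0.39 to −0.23). Myh7 had 1382 CPM (1329 to 1436) and 1109 CPM (1055 to 1165), a log2 ratio of −0.32 (−0.41 to −0.23).

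All 3 thin filament genes were lower in KO. Actc1 had 5993 CPM (5882 to 6105) in WT and 4278 CPM (4171 to 4387) in KO, a log2 ratio of −0.49 (−0.53 to −0.44), the lowest of the 10. Tnni1 had 1181 CPM (1132 to 1232) and 937 CPM (887 to 989), a log2 ratio of −0.33 (−0.43 to −0.24). Tnnt2 had 1977 CPM (1913 to 2042) and 1696 CPM (1629 to 1765), a log2 ratio of −0.22 (−0.30 to −0.15).

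Ttn, Nexn and Ankrd1 were higher in KO. The 13 further Z disc and linker genes measured, some of them gate markers, had a median ratio of −0.16, against −0.05 over all 7742 genes measured. Ttn had 2666 CPM (2592 to 2741) in WT and 3202 CPM (3109.7 to 3297) in KO, a log2 ratio of 0.26 (0.21 to 0.32). Nexn had 1153 CPM (1105 to 1203) and 1479 CPM (1416 to 1543), a log2 ratio of 0.36 (0.27 to 0.45), the highest of the 10. Ankrd1 had 1899.5 CPM (1837 to 1963) and 2297 CPM (2218 to 2377), a log2 ratio of 0.27 (0.20 to 0.34). Without the 5% of cells with most UMIs, the log2 ratios were 0.16 for Ttn, 0.13 for Nexn and −0.05 for Ankrd1.

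Of the 10 genes, 0 reached a log2 ratio of 0.5 in either direction, against 12.3% of the 7742 genes with at least 50 UMIs in the gate (4% higher and 8.31% lower in KO). Among the 114 genes with at least as many UMIs as the lowest of the 10, the share was 7.02%. The median ratio was −0.27 over the 10 genes and −0.05 over the 7742. In the 114 abundant genes the 5th percentile was −0.45 and the 95th 0.47. Actc1 and Myl4 lay below that range and the other 8 genes within it. Leaving out the gated cells with fewer than 5 of the genes moved all 10 ratios up, to between −0.38 (Actc1) and 0.47 (Nexn). Over 14 other gates, scalings and ways of counting, the ratios of Myh6, Myh7, Myl4, Actc1, Tnnt2 and Tnni1 stayed below 0 and those of Ttn and Nexn above 0. Myl7 ranged from −0.05 to 0.37 and Ankrd1 from −0.05 to 0.41.

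**Figure D2:**
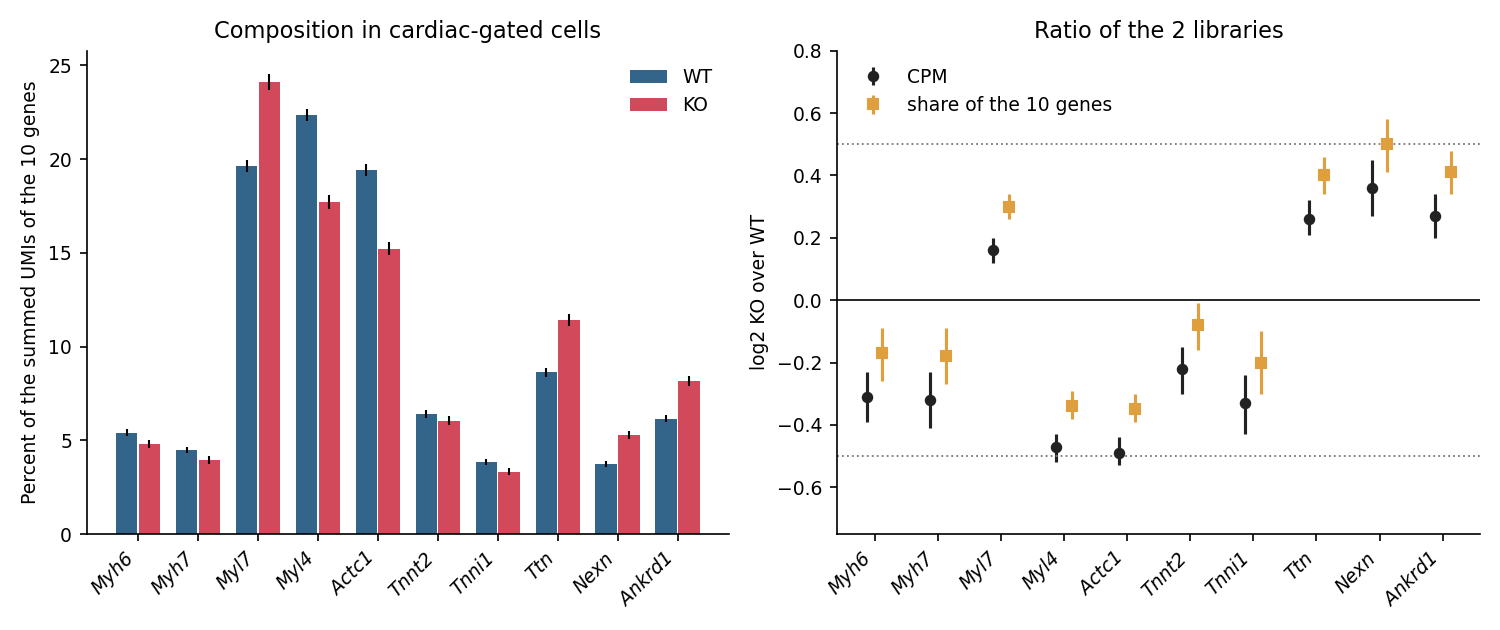
Left, the share of each gene in the summed UMIs of the 10 genes (percent) in cardiac-gated cells of WT (blue) and KO (red). Right, the log2 ratio of KO over WT of the level in CPM (black circles) and of that share (orange squares), with dotted lines at 0.5 and −0.5. Bars are 95% counting intervals. Myl7, Ttn, Nexn and Ankrd1 lie above 0 and the other 6 genes below 0 on both scales.

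Levels in the gate also depend on how many cells with little sarcomere RNA it took in, so each gene was also given as a share of the summed UMIs of the 10. The summed UMIs were 57153 in WT and 39765 in KO. Myl4 was the largest part in WT, with 22.4% (22.0% to 22.7%), and made up 17.7% (17.3% to 18.1%) in KO. Myl7 was the largest part in KO, with 24.1% (23.7% to 24.6%), and made up 19.6% (19.3% to 19.95%) in WT. These shares add to the whole, so a larger share of one gene means smaller shares of others. The log2 ratios of the shares ran from −0.35 (Actc1), −0.34 (Myl4), −0.20 (Tnni1), −0.18 (Myh7), −0.17 (Myh6) and −0.08 (Tnnt2) to 0.30 (Myl7), 0.40 (Ttn), 0.41 (Ankrd1) and 0.50 (Nexn). Over 8 other gates and ways of counting, those of 9 genes kept their side of 0, and that of Myh7 ran from −0.26 to 0.03. The light chains of the same myosin heads went opposite ways, with 0.878 Myl7 UMIs per Myl4 UMI in WT and 1.36 in KO. Among gated cells with at least 5 of the genes, 195 WT cells had more Myl7 than Myl4 and 452 more Myl4 (30.1% with more Myl7, 26.6% to 33.8%). In KO, 216 had more Myl7 and 154 more Myl4 (58.4%, 53.2% to 63.5%). The same direction was seen in the UMIs that lay in other cells, with 1.24 Myl7 per Myl4 in WT and 2 in KO in erythroid cells, and 1.26 and 1.63 over all cells outside the gate with fewer than 5 of the genes. These UMIs come from the same library as the cardiac cells, and where they arose was not tested. The composition of the UMIs outside the gate was not that of the cardiac cells: Actc1 made up 31.2% of them in WT and 27.6% in KO, against 19.4% and 15.2% in the gate.

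The 10 genes differed in how evenly they were spread over cells. In gated cells with at least 5 of them (671 in WT, 386 in KO), Myl4 was the most even, with a median of 7.75 per 1000 UMIs in WT and 5.94 in KO and a 90th percentile 1.555-fold and 1.665-fold the median. Ttn followed, at 1.86-fold and 1.69-fold. Ankrd1 and Myh7 were the least even: Ankrd1 had 0 UMIs in 26.7% of WT and 24.4% of KO cells, a median of 0.923 and 1.20 per 1000 UMIs and a 90th percentile of 5.88 and 6.63. Its highest cell had 31.3 per 1000 UMIs in WT and 29.3 in KO. Myh7 had 0 UMIs in 36.2% of WT and 31.9% of KO cells. All 10 genes were found together in 243 WT cells (30.0% of the gate) and 168 KO cells (31.2%), and in 8.02% and 9.12% after thinning to 1000 UMIs. Outside the gate, 7 of 11149 WT cells and 1 of 9226 KO cells had all 10. Over cells thinned to 1000 UMIs, the correlation of the square root of the UMIs of a pair of genes had a median of 0.18 over the 45 pairs in WT (666 cells) and 0.21 in KO (384 cells). It was highest between Myl7 and Actc1 (0.53 in KO and 0.46 in WT, where Myl4 and Actc1 also had 0.46) and lowest between Myh6 and Myh7 (−0.28 in WT and −0.16 in KO). These cells share their library and their counts are sparse.

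The heavy chains divided the cardiac-gated cells. Myh6 made up 54.7% (53.4% to 56.0%) of the Myh6 and Myh7 UMIs in WT and 54.8% (53.2% to 56.5%) in KO, so the balance of the pair differed between the libraries by less than the counting error. Single cells were far from that mean. Of the 429 WT and 253 KO cells with at least 6 UMIs of the pair, 30.1% and 27.3% had over 90% Myh6, 11.4% and 11.9% had under 10%, and 10.5% and 14.2% lay between 40% and 60%.

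**Figure D3:**
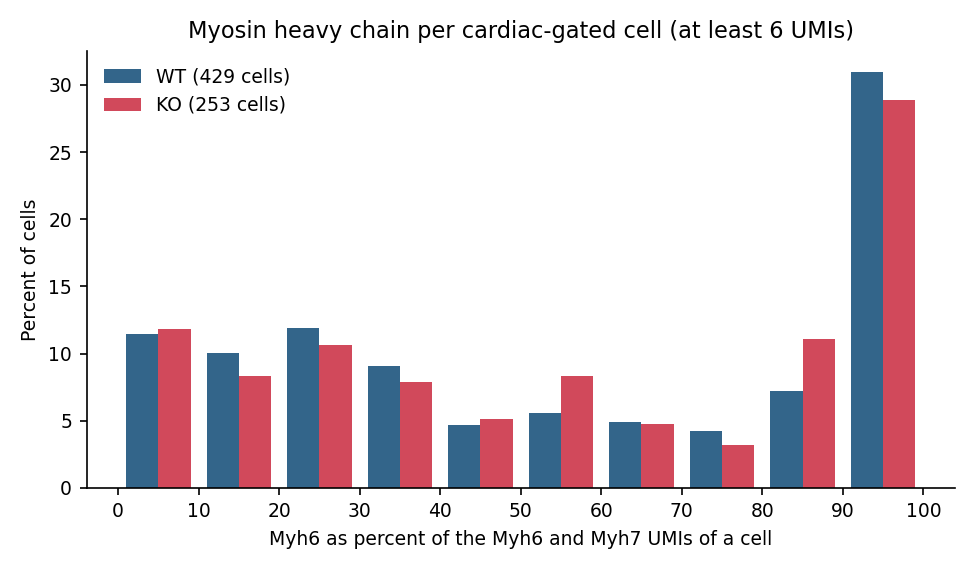
Percent of cells (vertical axis) by the share of Myh6 in the Myh6 and Myh7 UMIs of the cell (horizontal axis, in steps of 10%) for cardiac-gated cells with at least 6 such UMIs, WT in blue (429 cells) and KO in red (253 cells). The last bin, from 90% to 100% Myh6, is the fullest in both libraries (31.0% of WT and 28.9% of KO cells), and the bins from 40% to 80% are the emptiest in WT, with at most 5.59% of cells each.

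Genes with a known place in the heart were compared between cells with more Myh7 (292 WT, 171 KO) and cells with more Myh6 (360 WT, 219 KO), whose median depths were 2427 and 2245 UMIs in WT and 2956 and 3014 in KO. Of 29 regional genes with at least 20 UMIs in each library, 7 were at least 2-fold higher with Myh7 in both libraries and 10 were at least 2-fold higher with Myh6. Of the 7066 genes so measured, 0.679% and 0.651% were. With Myh7 went the ventricular genes Myl2, Irx4 and Hey2 and the outflow tract genes Isl1, Sema3c, Tnc and Tdgf1. Myl2, the ventricular regulatory light chain, had 1213 CPM with Myh7 and 483 CPM with Myh6 in WT, and 1317 and 519 in KO. Tnc, a matrix protein of the outflow tract, had 149 and 17.8 CPM in WT and 120.4 and 25.6 in KO. Tdgf1, a Nodal co-receptor, had 27 UMIs with Myh7 and 0 with Myh6 in WT, and 31 and 2 UMIs in KO. In WT this was 10.4-fold higher when the 0 was set to a floor of 3 UMIs over the group. The interval of its log2 ratio in WT began at 2.98.

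With Myh6 went all 7 atrial genes measured. Nr2f2, an atrial transcription factor, had 537 CPM with Myh6 and 145 CPM with Myh7 in WT, and 537 and 157 in KO. Vsnl1 had 79 UMIs with Myh6 and 3 with Myh7 in WT and 48 and 2 in KO. The sinus venosus genes Shox2 (33 and 1 UMIs in WT, 22 and 1 in KO) and Hcn4, the pacemaker channel (69 and 15 in WT, 42 and 10 in KO), and the atrioventricular canal gene Bmp2 (223 and 56 in WT, 175 and 59 in KO) went the same way. The other 12 genes did not reach 2-fold the same way in both libraries. Nppb, a trabecular natriuretic peptide, had a log2 ratio of Myh7 over Myh6 of 1.65 (1.08 to 2.25) in WT and −0.36 (−0.81 to 0.09) in KO. Counts thinned to 1000 UMIs left 14 of the 29 genes with enough UMIs, of which 1 was higher with Myh7 and 4 with Myh6. Asking for at least 75% of 4 or more myosin UMIs per cell left 20 genes, of which 3 were higher with Myh7 and 9 with Myh6. Of the 10 sarcomere genes other than the pair, Ankrd1 leaned most to Myh7, with 2784 CPM against 1633.5 CPM with Myh6 in WT and 3395 against 2292 in KO. Myl7 leaned to Myh6, with 7558 CPM against 6034 in WT and 9145 against 6916 in KO. Actc1 and Myl4 leaned the same way, with log2 ratios of Myh7 over Myh6 of −0.31 and −0.25 in WT and −0.25 and −0.21 in KO. Ttn differed little, at 3039 with Myh7 and 2948 with Myh6 in WT and 3826 and 3805 in KO.

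**Figure D4:**
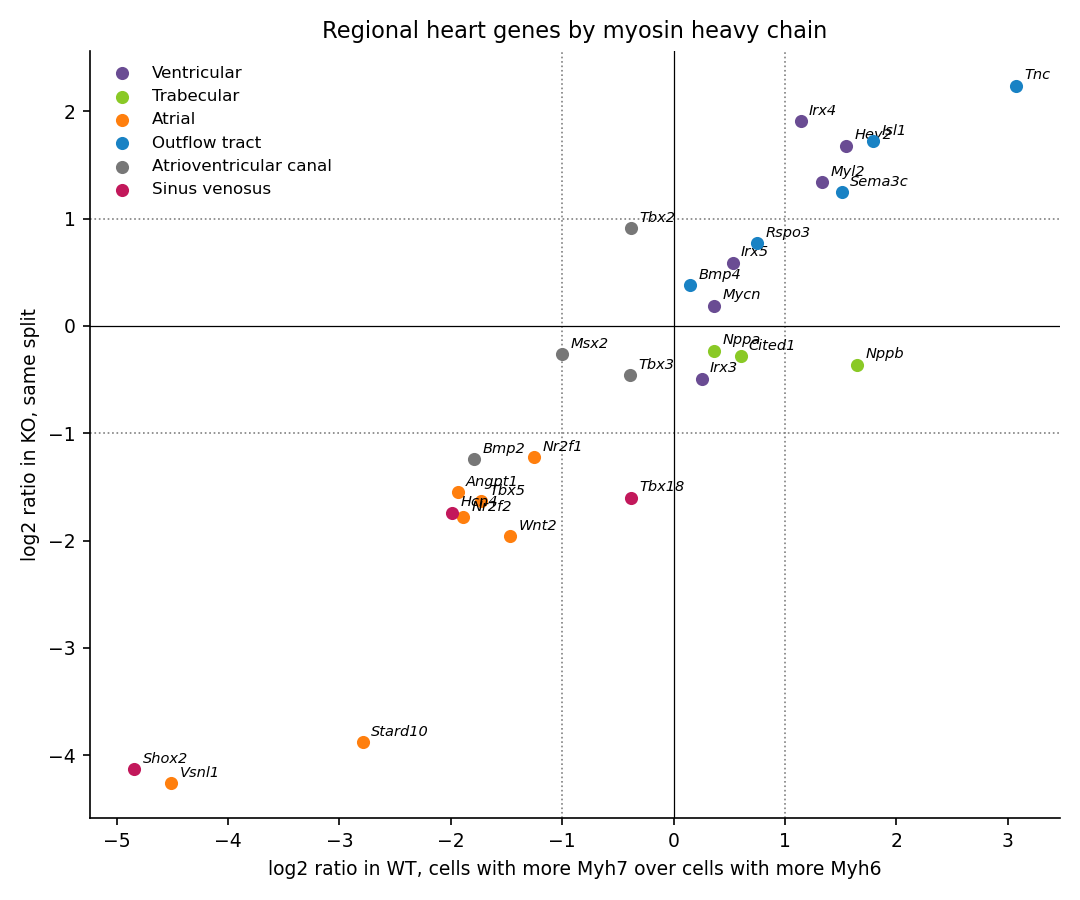
Log2 ratio of the level in cardiac-gated cells with more Myh7 over cells with more Myh6, in WT (horizontal axis) and KO (vertical axis), for 28 regional heart genes coloured by their list, with dotted lines at 2-fold. All 7 atrial genes lie at the lower left with Bmp2, Shox2 and Hcn4, 3 ventricular and 3 outflow tract genes lie at the upper right, and Nppb lies to the right in WT only. Tdgf1, with 0 UMIs on one side in WT, is not drawn.

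The same was looked at from the side of the regional genes. Cells with UMIs of at least 2 of the outflow tract genes (132 WT and 89 KO gated cells) were set against cells with none (474 and 327). Ankrd1 made up 10.5% (9.91% to 11.04%) of the summed UMIs of the 10 genes in the former and 4.805% (4.57% to 5.05%) in the latter in WT, and 15.2% (14.4% to 15.9%) and 5.71% (5.41% to 6.03%) in KO. This is a log2 ratio of 1.12 in WT and 1.41 in KO. The intervals of the shares do not overlap, but they take each UMI as independent and do not cover the spread between cells. Ankrd1 was among the least even of the 10 genes over cells. By a log2 ratio of 0.5 in both libraries, Myh7 also had a larger part there, with 6.93% against 3.51% in WT and 5.20% against 3.09% in KO. Myh6 had a smaller part, with 2.69% against 6.33% in WT and 2.41% against 5.54% in KO. The cells with outflow tract genes were deeper, at a median of 2396 against 2151 UMIs in WT and 3254 against 2288 in KO. Isl1 is also a marker of the pharyngeal mesoderm gate. With all cells thinned to 1000 UMIs and 1 outflow gene asked for, the log2 ratios of Ankrd1 were 0.80 in WT and 0.97 in KO.

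Cells with ventricular genes had a larger share of Myh7 but not of Ankrd1. They were deeper, at a median of 2579 against 2022 UMIs in WT and 2967 against 2256.5 in KO. Cells with atrial or trabecular genes were also deeper than cells with none. The shares for these 3 lists were not repeated on thinned counts. In cells with at least 2 ventricular genes Myh7 made up 6.71% in WT and 5.98% in KO, against 2.03% and 2.20% in cells with none, whereas Ankrd1 made up 6.15% against 5.81% in WT and 7.54% against 7.92% in KO. In cells with at least 2 atrial genes Myh7 made up 1.93% in both libraries, against 7.59% in WT and 5.99% in KO in cells with none, and Myh6 6.74% and 6.09% against 3.59% and 2.52%. Ankrd1 made up 5.66% against 6.95% in WT and 7.08% against 11.9% in KO there. For trabecular genes no member reached a log2 ratio of 0.5 in both libraries. The share of Ankrd1 was 15.2% in KO against 10.5% in WT in cells with at least 2 outflow tract genes. In cells with none it was 5.71% against 4.805%. These shares were not compared at equal depth, and what gave the differences was not tested. Over the whole gate, the log2 KO over WT ratio of its share fell from 0.41 to 0.23 without the 5% of cells with most UMIs. Cells with at least 2 outflow tract genes were 16.3% of the gate in WT and 16.5% in KO.

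**Figure D5:**
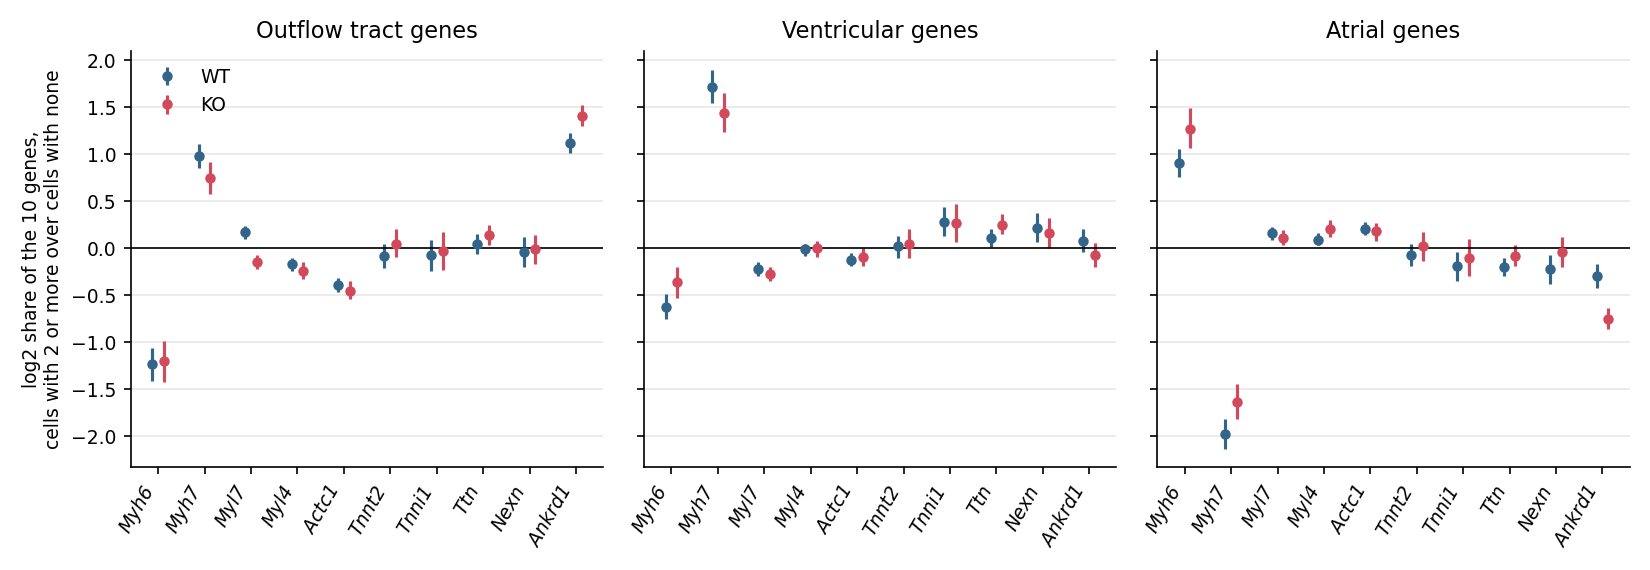
Log2 ratio of the share of each gene in the summed UMIs of the 10 genes (vertical axis), in cardiac-gated cells with UMIs of at least 2 outflow tract, ventricular or atrial genes over cells with none, for WT (blue) and KO (red) with 95% counting intervals. Ankrd1 stands at 1.12 and 1.41 for outflow tract genes and near 0 for ventricular genes, and Myh6 and Myh7 go in opposite directions in each panel.

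Other genes of the sarcomere and of the heart muscle cell were described from fixed lists, in which 11 genes are also markers of the gate. Of 7 further thick filament genes and 13 further thin filament genes measured, 0 reached a log2 ratio of 0.5, and their medians were −0.06 and −0.13. Myl3, an essential light chain and itself a marker of the gate, stood at −0.36 (−0.49 to −0.23). Acta2 stood at −0.35 (−0.42 to −0.29) and Acta1 at −0.33 (−0.50 to −0.17), while Tpm1, the main tropomyosin with 3743 CPM in WT and 4152 in KO, stood at 0.15 (0.10 to 0.20). The counts that follow stand beside 8.31% of all 7742 genes lower and 4% higher past that size, and a count of 1 or 2 is not read as a result about its list. Of 13 Z disc and linker genes, 4 were lower in KO past that size and 0 higher: Fhl2 (−0.71), Flnc (filamin C, −0.71), Tcap (telethonin, −0.64) and Synpo2l (−0.60). The interval of Tcap (−1.43 to 0.10) held 0. Thus the Z disc genes Nexn and Fhl2 lay on opposite sides. Of 8 assembly and chaperone genes 1 was lower, Trim63, a ubiquitin ligase of the sarcomere (−0.82). Of 6 calcium handling genes 1 was higher, the sodium-calcium exchanger Slc8a1 (0.86), and the calcium pump Atp2a2 stood at −0.40 (−0.51 to −0.28). Of 11 cardiac transcription factors 2 were lower, Hand1 (−0.52, −1.07 to 0.02) and Srf (−0.52, −0.97 to −0.09). Mef2a stood at 0.43 (0.15 to 0.70), Mef2c at 0.20 (0.05 to 0.35) and Nkx2-5, also a marker of the gate, at −0.34 (−0.56 to −0.11).

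Among the regional lists, the natriuretic peptides Nppa (0.55, 0.39 to 0.71) and Nppb (0.86, 0.53 to 1.20) were past that size upward and the trabecular gene Cited1 (−0.75, −1.25 to −0.26) downward. Irx4 (−0.86), Stard10 (−0.63) and Wnt2 (−0.61) were lower and Tdgf1 (0.68, −0.10 to 1.47) higher, and the remaining 5 ventricular, 5 atrial, 5 outflow tract, 4 atrioventricular canal and 3 sinus venosus genes measured were within it. Ankrd1 is known as a target of YAP and stretch. Of the 5 other such targets measured, 0 were higher in KO and 2 were lower past that size, Ctgf (−0.69, −1.56 to 0.13) and Cyr61 (−0.61, −1.49 to 0.22), which had 21.6 and 20.5 CPM in WT and 13.4 each in KO.

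The genes whose level over 12 marker gates was most like the mean of the 10 (by the lower of the Pearson correlations of log2(CPM + 10) in the 2 libraries, which share their gates) were 5430431A17Rik (0.966), Ppp1r14c (0.942), Sh3bgr (0.919), Hspb2 (0.911), Bves (0.911), Ccdc141 (0.905), Myl9 (0.899) and Map3k20 (0.885). Members and gate markers were not eligible. In the cardiac gate their log2 ratios of KO over WT also went both ways: 5430431A17Rik, an uncharacterised transcript with 1229 CPM in WT and 1392 in KO, stood at 0.18 (0.09 to 0.27) and Hspb2, a small heat shock protein of muscle, at 0.35 (0.10 to 0.60). Bves, a membrane protein of heart muscle, stood at −0.67 (−0.95 to −0.40) and Myl9, a regulatory light chain of smooth muscle, at −0.33 (−0.42 to −0.24).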

How the data were processed

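The authors made 3′ droplet libraries, demultiplexed them by MULTI-Seq and counted UMIs with Cell Ranger 1.3.1 on mm10 per the labels, with Scanpy also named; the study's methods name a human reference joined with ZsGreen1, whereas the deposited symbols are those of mouse. Per the methods, doublets and mitochondrial and ribosomal UMIs were removed, so no doublet caller was run. The deposited signal is the square root of each UMI count scaled to 1641 per cell, and 100% of nonzero values gave whole UMIs within 0.01. This was the unit used in place of raw counts, and no count model was fitted. Of 18131 symbols, 17917 matched GENCODE vM21 (GRCm38).

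UMIs were summed per library and gate and given per 1000000 UMIs (CPM) with Poisson intervals, shares with Clopper-Pearson intervals and ratios with conditional intervals, all exact at 95% and for counting error only. Library depth was 20781384 UMIs in WT and 18936857 in KO. The gates took 13 marker lists (3 listed markers were not in the table) and at least 3 markers. With 1 library per genotype no test was made, and genes are named by a log2 ratio of 0.5, or 2-fold for the myosin split. Named genes were the 10, the lists, and the 8 genes most alike with at least 100 UMIs. The members and lists were chosen with earlier results of these data known. Tools were Python 3.11.15, NumPy 2.4.6, SciPy 1.17.1 and pandas 2.3.3, and the steps were tested on simulated data. Alternatives changed the gate, scaling, depth and doubtful cells.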

Additional observations from a re-analysis of the deposited data

Results flagged for a closer look

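For 3 of the 10 genes the log2 ratio of KO over WT outside the cardiac gate, in cells with fewer than 5 of the genes, went against that inside it with both intervals clear of 0. It was 0.13 outside and −0.31 inside for Myh6, 0.20 and −0.32 for Myh7, and 0.22 and −0.22 for Tnnt2. Ankrd1 also differed in sign, at −0.06 (−0.25 to 0.14) outside and 0.27 inside, but its interval outside held 0. The levels outside were 75.6 CPM in WT and 82.7 in KO for Myh6, 65.0 and 74.6 for Myh7 and 82.1 and 95.9 for Tnnt2. With 1 library per genotype the difference between inside and outside was not tested.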

How the results depend on the processing

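No paired analysis was possible because each genotype had 1 library, and no replicate could be left out. Over 304 recalculations of 37 results, 183 stayed within the counting interval, or for counts of genes within 1.5 times, 117 moved further with the same sign and 4 changed sign: Myl7 to −0.01 with 2 markers in the gate and −0.05 with counts thinned to 1000 UMIs, Ankrd1 to −0.05 with the 5% of cells with most UMIs left out, and the share of Myh7 in the summed genes to 0.03 when thinned. The cause was not tested. The count of members above 0 was 4 and lay at 3 or 4 throughout. Trimmed mean and median of ratios scaling each raised the ratios, since the shift each took out was −0.03, and Myh6 stood at −0.28 and Nexn at 0.39 under both. The alternatives for the shares of the summed genes, for Myl7 per Myl4, for the outflow tract ratio and for cells with at least 5 genes, and the gate at 4 markers for the regional genes, were chosen after seeing the data.

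The cardiac gate (WT, then KO) took 11.2% and 10.9% of cells with 2 markers, 5.20% and 3.79% with 4, and 5.04% and 3.29% when set on thinned counts. Cardiac-gated cells were 25.02% and 22.05% of the cells in any gate. The summed genes took 2.25% and 1.82% of UMIs with 2 markers, 3.59% and 3.48% with 4, 3.61% and 3.36% with the gate on thinned counts, 3.32% and 3.36% with 2 markers that are no sarcomere genes, and 2.98% and 2.45% without the deepest cells. At least 5 genes were seen in 53.5% and 41.5% of cells with 2 markers, 97.8% and 93.5% with 4, 91.0% and 81.7% with the gate on thinned counts, and 85.9% and 88.7% with no sarcomere genes. It was 65.0% in KO without the deepest cells. The Myh6 share of the pair was 57.3% and 57.0% without the deepest cells and 56.9% in KO with no sarcomere genes. Myl7 per Myl4 was 0.847 in WT with no sarcomere genes and 1.31 in KO with the gate on thinned counts. Members above the erythroid level in the skeletal myogenic gate were 1 and 2 instead of 8 and 7 without cells with a cardiac marker, where fewer cells gave wider intervals. The outflow tract log2 ratio of Ankrd1 was 0.80 and 0.97 after thinning. Of the regional genes, 3 instead of 7 went with Myh7 where at least 75% of 4 or more myosin UMIs were asked for, with 20 genes measured. After thinning 1 went with Myh7 and 4 instead of 10 with Myh6, with 14 measured.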
